A study of Mus musculus with 21 samples.

Results

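A set of 10 genes of the acute phase response and of secreted antimicrobial defence were followed in mouse bone marrow-derived macrophages: Saa3, Hp, Lcn2, Ptx3, Slpi, Chil1, Lyz1, Lyz2, Pglyrp1 and Camp. They were matched by gene symbol, and all 10 were found in both deposited expression tables, of 50645 and 50644 genes. The macrophages were grown from marrow of C57Bl6/J donors, labelled as aged 24 weeks, in medium with L929 cell supernatant. In the fatty acid table all donors ate standard chow. Its TAK242-fatty acid-LPS group received 10 mM fatty acid (palmitic to oleic acid at 1:3) with 200 nM TAK242, a small-molecule inhibitor of the lipopolysaccharide receptor TLR4, over the first 4 days, was washed, and met 100 ng/ml lipopolysaccharide (LPS) from E. coli for 24 h on day 7. Its fatty acid-LPS group had the same schedule without TAK242, its LPS-alone group had LPS only, and its untreated group had none of these agents. No group had fatty acid or TAK242 without LPS. In the Western diet table, donors of the groups labelled WD + LPS and WD control ate a diet high in fat, sugar and cholesterol for 24 weeks, and a chow untreated group (replicates 4 to 6) stood beside them. By label, the WD + LPS group met 100 ng/ml LPS for 24 h on day 7. The WD control and chow untreated groups received no LPS by label. Each of the 7 groups has 3 libraries. The labels do not say whether these are separate mice or cultures of pooled marrow, so p-values measure only the spread between libraries.

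Acute phase proteins are secreted when pattern receptors such as TLR4, and the cytokines released after them, signal through NF-kappaB, C/EBP factors and STAT3. The liver supplies most of them to plasma, and macrophages make some locally. In this set, Saa3 is the serum amyloid A of macrophages and adipose tissue, Hp encodes haptoglobin, which binds free haemoglobin, and Lcn2 encodes lipocalin 2, which withholds iron from bacteria by binding their siderophores. Ptx3 is a long pentraxin that tags microbes. Slpi is an inhibitor of leukocyte serine proteases, and Chil1 is a chitinase-like protein that binds chitin without cutting it. Lyz1 and Lyz2 are the lysozymes, which cut bacterial cell walls, Pglyrp1 binds peptidoglycan, and Camp is the precursor of the cathelicidin peptide.

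In GRCm38, Saa3 lies at chr7:46711998-46715700 (minus strand), Hp at chr8:109575128-109579172 (minus), Lcn2 at chr2:32384633-32388252 (minus) and Ptx3 at chr3:66219910-66225805 (plus). Slpi lies at chr2:164354070-164389095 (minus), Chil1 at chr1:134182176-134190181 (plus), Pglyrp1 at chr7:18871331-18890459 (plus) and Camp at chr9:109847379-109849617 (minus). Promoter sequences are shown for Saa3, Lcn2 and Chil1, 3 members that moved together under LPS, with capitals marking the C/EBP-type letters TTNNGCAA and the kappaB-type letters (GGG and CC with any 5 bases between them) on either strand. Each is the stretch of 250 bases before the start of the gene in RefSeq (GRCm38.p6), written 5′ to 3′ on the gene's strand. The Lcn2 stretch lies inside the gene interval of the deposited table, whose annotation starts further upstream, and the Saa3 stretch overlaps the end of its interval in part.
Saa3 (chr7:46715677-46715926, minus strand): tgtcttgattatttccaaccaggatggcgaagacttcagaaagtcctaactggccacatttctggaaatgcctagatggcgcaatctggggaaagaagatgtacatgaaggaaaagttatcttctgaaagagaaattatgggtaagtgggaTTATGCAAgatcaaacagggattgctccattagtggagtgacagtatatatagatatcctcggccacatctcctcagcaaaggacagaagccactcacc
Lcn2 (chr2:32387740-32387989, minus strand): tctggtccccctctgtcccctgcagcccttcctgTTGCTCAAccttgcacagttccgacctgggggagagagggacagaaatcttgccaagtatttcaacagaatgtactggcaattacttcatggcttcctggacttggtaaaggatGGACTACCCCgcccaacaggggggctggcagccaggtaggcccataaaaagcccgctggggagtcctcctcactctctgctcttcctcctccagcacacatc
Chil1 (chr1:134181906-134182155, plus strand): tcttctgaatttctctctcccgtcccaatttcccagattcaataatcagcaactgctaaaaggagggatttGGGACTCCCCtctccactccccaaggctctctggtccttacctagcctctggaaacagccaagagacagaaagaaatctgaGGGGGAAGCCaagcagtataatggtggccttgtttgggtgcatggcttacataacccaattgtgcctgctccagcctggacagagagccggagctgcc

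RefSeq windows, from 250 bases before to 50 after the start, were at hand for 9 of the 10 members, Hp being the other. TTNNGCAA occurred in 5 of these 9 windows (Lcn2, Slpi, Ptx3, Saa3 and Lyz1), against 10.8% of 32851 windows of all genes. The kappaB-type letters occurred in 5 of 9 (Chil1, Lcn2, Ptx3, Pglyrp1 and Camp), against 50.8% of all windows. The STAT-type letters TTCNNNGAA and the AP-1-type letters TGANTCA occurred in 0 of 9, against 8.3% and 7.81% of all windows, and the interferon-type letters (GAAA and GAAA with any 2 bases between them) occurred in Saa3 alone, against 3.44%. Overlapping matches, as in Ptx3 and Camp, were counted as 1 window. These are matches of letters on either strand, described without a test.

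The lysozyme genes lie next to each other on chromosome 10 of GRCm38, Lyz2 at 117277331-117282321 and Lyz1 at 117287797-117292868, both on the minus strand. Their upstream stretches are shown with capitals at the letters that differ in their alignment, because the similarity bears on how reads of the pair can be told apart. The Lyz2 stretch overlaps the end of its deposited interval in part.
Lyz1 (chr10:117292869-117293118, minus strand): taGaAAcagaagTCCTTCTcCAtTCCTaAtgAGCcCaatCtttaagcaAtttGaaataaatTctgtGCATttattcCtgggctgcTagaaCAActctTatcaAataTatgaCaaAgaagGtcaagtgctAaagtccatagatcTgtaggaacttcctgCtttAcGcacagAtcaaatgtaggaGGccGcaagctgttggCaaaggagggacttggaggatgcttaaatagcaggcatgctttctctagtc
Lyz2 (chr10:117282273-117282522, minus strand): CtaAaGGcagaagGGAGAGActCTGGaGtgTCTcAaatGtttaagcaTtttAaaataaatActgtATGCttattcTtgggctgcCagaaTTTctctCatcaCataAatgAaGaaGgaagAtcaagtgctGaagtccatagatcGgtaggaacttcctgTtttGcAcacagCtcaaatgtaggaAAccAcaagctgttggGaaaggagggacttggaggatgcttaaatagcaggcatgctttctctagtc
Within the full windows, 249 of 302 aligned positions were identical (82.5%). Over the transcripts, of 1263 bases for Lyz1 and 1316 bases for Lyz2, 1211 of 1317 aligned positions were identical (92%), with a longest shared run of 118 bases. How the authors' counting divided reads of this pair is not given in the sources used here, so the value of each lysozyme is uncertain. Slpi overlaps the microRNA gene Mir7678 on its own strand by 71 bases, within an exon of 2 of its 3 annotated transcripts. Ptx3 lies inside Veph1, on the opposite strand, and Veph1 was listed at 0 in every library of both tables.

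The deposited values are normalised expression values whose unit the files do not name, and they summed to between 321532 and 386023 per library. Read depth is not recorded in the files, so the number of libraries and their spread limit the precision. Per library, 8803 to 10145 genes reached a value of 1. All 12 macrophage markers listed were expressed in both tables, with summed values of 2666 to 4621 in the fatty acid table and 2900 to 4162 in the Western diet table. The LPS-induced chemokine gene Ccl5 was at 3102 to 7141 in the 9 libraries with LPS of the fatty acid table and at 0.419 to 0.645 in the untreated ones. In the Western diet table Ccl5 went against the label in 4 of 6 libraries. It was at 0.463 and 10.5 in the libraries labelled WD + LPS replicates 1 and 2, against 7846 and 10973 in the libraries labelled WD control replicates 1 and 3. Results of that table are therefore given last, by label, with and without these 4 libraries. The tables may have been normalised separately, so tests stayed within each.

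The first comparison, LPS-alone against untreated macrophages, asked which members LPS changed in chow-fed donors. Saa3, Hp, Lcn2, Slpi, Chil1 and Camp rose, and neither lysozyme passed the test. Saa3 was at 27837, 49516 and 14007 in LPS-alone libraries, against 8.16, 6.71 and 7.24 in untreated libraries. The lowest LPS-alone library was far above every untreated library, a log2 change of 11.65 ± 0.52 (SE; adjusted p = 1.46e-08, limma with Benjamini-Hochberg adjustment, as for every adjusted p below). A pseudocount of 1 was added before taking logs, so the log2 changes of low genes are understated. Saa3 took 3.89% to 12.88% of the summed deposited values in LPS-alone libraries, against 0.00184% to 0.00220% in untreated libraries. The 10 genes together took 6.46% to 15.5% in LPS-alone libraries, against 2.10% to 2.37% in untreated libraries, where nearly all of the share was Lyz2.

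Haptoglobin and lipocalin 2 transcripts were the most even of the induced members among the LPS-alone libraries. Hp was at 242.2, 220.5 and 194.3 in LPS-alone libraries, against 0.228, 0.375 and 0.206 in untreated libraries, a log2 change of 7.43 ± 0.16 (adjusted p = 9.78e-11). Lcn2 was at 1925, 1801 and 1490 in LPS-alone libraries, against 3.14, 2.70 and 3.79 in untreated libraries, a log2 change of 8.69 ± 0.26 (adjusted p = 7.67e-10). In both genes the highest LPS-alone library was less than 1.3 times the lowest. Chil1, the chitinase-like gene, was at 387.4, 325.1 and 214.9 in LPS-alone libraries, against 0.220, 0.0835 and 0.253 in untreated libraries. Its log2 change was 7.99 ± 0.25 (adjusted p = 1.03e-09), and the groups were wide apart.

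Slpi, the protease inhibitor, differed most between replicates. It was at 1388, 151.1 and 63.2 in LPS-alone libraries, against 1.31, 1.04 and 1.28 in untreated libraries. LPS-alone replicate 1 was thus 22-fold above replicate 3, yet all 3 stood above the untreated libraries, and the log2 change was 6.76 ± 0.83 (adjusted p = 3.65e-05). Camp stayed low throughout, at 5.09, 3.80 and 2.65 in LPS-alone libraries, against 0.854, 0.675 and 0.554 in untreated libraries. Its log2 change was 1.49 ± 0.22 (adjusted p = 0.000131), and the groups did not overlap.

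The lysozymes were already high before LPS. Lyz2 averaged 7671 ± 490 in LPS-alone libraries and 8087 ± 573 in untreated libraries (SD, n = 3 each), a log2 change of -0.08 (95% interval -0.32 to 0.17, adjusted p = 0.578). Lyz1 averaged 43.0 ± 1.9 in LPS-alone libraries and 43.1 ± 4.3 in untreated libraries, a log2 change of 0.00 (95% interval -0.26 to 0.27, adjusted p = 0.989). Both groups overlapped for each lysozyme. The scaling matters here, since the median log2 change of all genes tested was -0.31. With median-ratio scaling between libraries Lyz2 and Lyz1 both passed as higher in LPS-alone libraries, by log2 changes of 0.34 (adjusted p = 0.0447) and 0.41 (adjusted p = 0.0130). Lyz1 was at 0.434% to 0.598% of the Lyz2 value in the 12 libraries, a ratio of deposited values and not of transcript numbers.

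Ptx3 and Pglyrp1 were not kept by the filter, which asked for a value of at least 1 in 3 libraries. Ptx3 was at 0.143, 0.146 and 0.0975 in LPS-alone libraries, against 0.0330, 0 and 0.0445 in untreated libraries. Pglyrp1 was at 0, 0.494 and 0.264 in LPS-alone libraries, against 0.0465, 0.0459 and 0.00659 in untreated libraries, with overlap. So 8 of the 10 members were tested, and 6 of these 8 rose. Across all 10476 genes tested, 61.7% passed the test in either direction, of which 13.8% rose and 47.9% fell (shares of all tested). Hp, Chil1 and Camp passed the filter only through libraries with LPS and so had to differ, and the count of 6 is a description. The median log2 change was 7.10 over the 8 tested members.

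**Figure D1:**
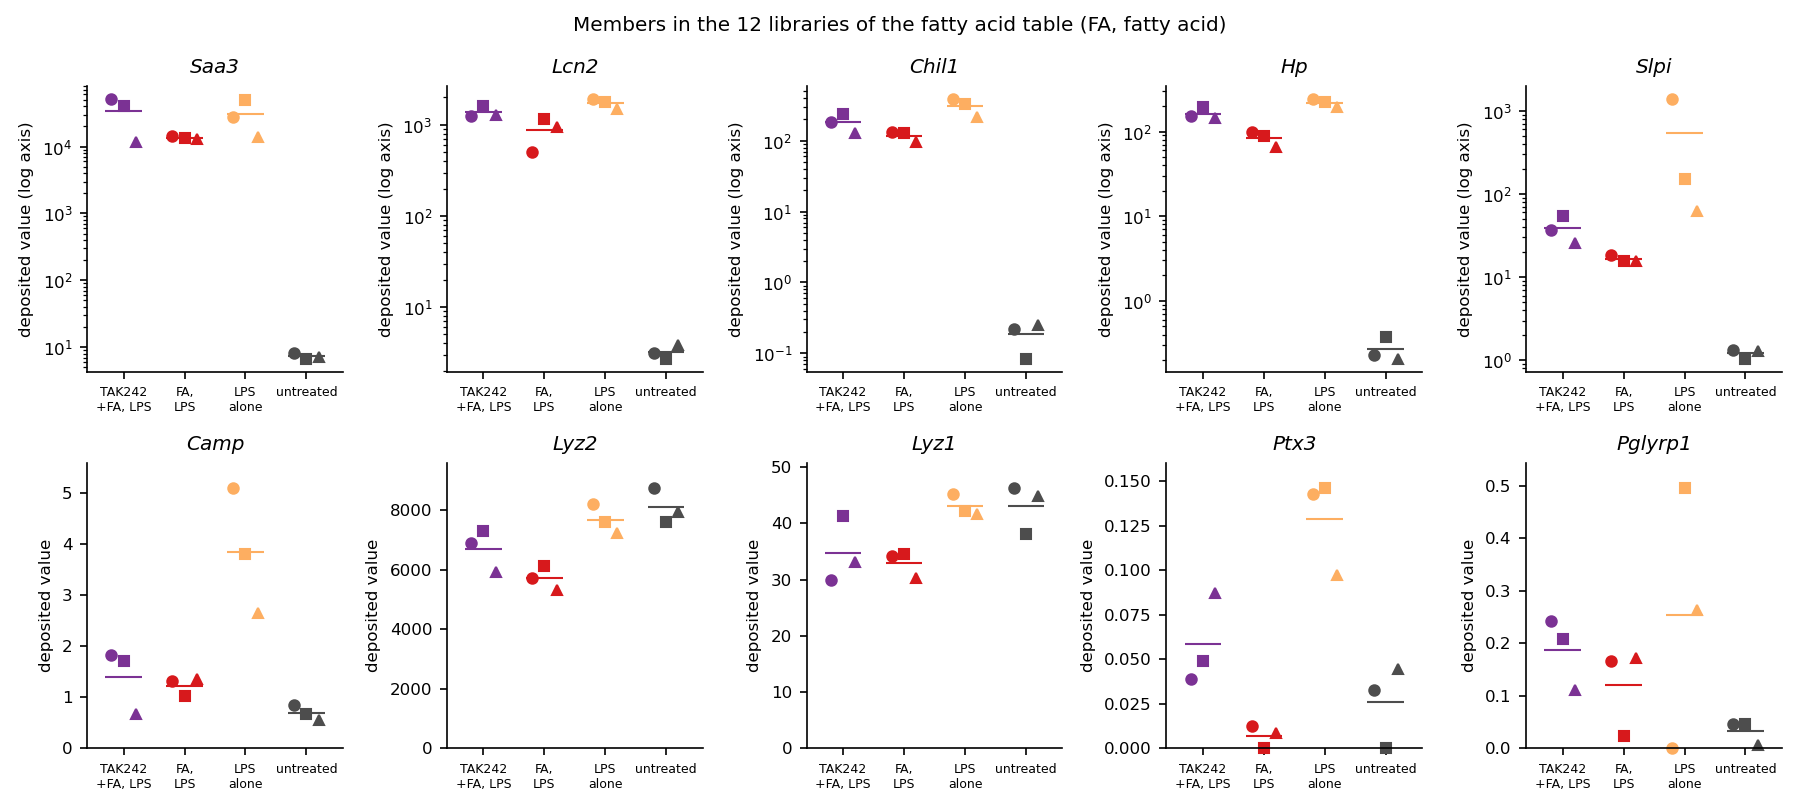
Deposited values (vertical axes, unit not named in the files) of the 10 members in each library of the 4 groups of the fatty acid table, with circles, squares and triangles for replicates 1, 2 and 3 and lines at group means. The upper row has log axes and shows the libraries with LPS far above the untreated ones, while in the lower row Camp peaks in LPS-alone libraries, Lyz2 and Lyz1 lie lowest after fatty acid or after TAK242 with fatty acid, and Ptx3 and Pglyrp1 stay under 0.5 (all on the deposited scaling).

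The second comparison, fatty acid-LPS against LPS-alone macrophages, asked how early exposure to fatty acid altered these transcripts under the same LPS dose. Hp, Lcn2, Slpi, Chil1, Camp, Lyz2 and Lyz1 fell, and Saa3 did not pass the test. Hp was at 98.3, 87.5 and 66.2 in fatty acid-LPS libraries, against 242.2, 220.5 and 194.3 in LPS-alone libraries. These groups did not overlap, and the log2 change was -1.38 ± 0.16 (adjusted p = 0.000347). Chil1 was at 131.8, 127.0 and 95.9 in fatty acid-LPS libraries, against 387.4, 325.1 and 214.9 in LPS-alone libraries, a log2 change of -1.35 ± 0.25 (adjusted p = 0.00251). The mean of either gene after fatty acid was near 38% of its LPS-alone mean, 38.4% for Hp and 38.2% for Chil1.

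Lcn2 was at 506.6, 1167 and 953.5 in fatty acid-LPS libraries, against 1925, 1801 and 1490 in LPS-alone libraries, a log2 change of -1.06 ± 0.26 (adjusted p = 0.00919). Fatty acid-LPS replicate 1 was the low library, and without it the change was -0.71 (adjusted p = 0.0122). With only the 6 libraries compared in the fit, the adjusted p for Lcn2 was 0.0507. Camp, the cathelicidin precursor, was at 1.32, 1.02 and 1.36 in fatty acid-LPS libraries, against 5.09, 3.80 and 2.65 in LPS-alone libraries, a log2 change of -1.09 ± 0.22 (adjusted p = 0.00362). The groups of both genes stood apart.

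Slpi had the largest fall of the members. It was at 18.5, 15.4 and 15.6 in fatty acid-LPS libraries, against 1388, 151.1 and 63.2 in LPS-alone libraries, a log2 change of -3.77 ± 0.83 (adjusted p = 0.00590). LPS-alone replicate 1 set much of that size, since without it the change was -2.50 (adjusted p = 0.00118). Saa3 was at 14278, 13325 and 12973 in fatty acid-LPS libraries, against 27837, 49516 and 14007 in LPS-alone libraries. The fatty acid-LPS libraries were close together, and 1 of them exceeded the lowest LPS-alone library. The log2 change of Saa3 was -0.99 ± 0.52 (95% interval -2.14 to 0.17, adjusted p = 0.160). Without LPS-alone replicate 3 it was -1.46 and passed (adjusted p = 0.0456), and without replicate 2 it was -0.55 (adjusted p = 0.455).

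The lysozymes moved less. Lyz2 was at 5725, 6113 and 5309 in fatty acid-LPS libraries, against 8197, 7589 and 7227 in LPS-alone libraries, a log2 change of -0.42 ± 0.11 (adjusted p = 0.0135). Lyz1 was at 34.2, 34.6 and 30.3 in fatty acid-LPS libraries, against 45.2, 42.2 and 41.7 in LPS-alone libraries, a log2 change of -0.37 ± 0.12 (adjusted p = 0.0312). Neither gene's groups overlapped. Lyz1 missed the threshold with the replicate number as a block (adjusted p = 0.0521) and without any of several libraries, and both missed it with no filter, at 0.0636 for Lyz1 and 0.236 for Lyz2. Ptx3, untested, was at 0.0125, 0 and 0.00852 in fatty acid-LPS libraries, against 0.143, 0.146 and 0.0975 in LPS-alone libraries, all close to 0. In all, 7 of the 8 tested members fell and 0 rose, while 37.2% of all genes tested passed, 21.8% as higher and 15.3% as lower. The median log2 change was -1.08 over the 8 members and 0.06 over all genes tested.

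The third comparison asked whether TAK242, given together with fatty acid, altered these levels. Hp rose, and no other member passed. Hp was at 152.2, 193.4 and 143.7 in TAK242-fatty acid-LPS libraries, against 98.3, 87.5 and 66.2 in fatty acid-LPS libraries, a log2 change of 0.96 ± 0.16 (adjusted p = 0.0117). All TAK242 libraries stood above all fatty acid-LPS libraries, and without TAK242 replicate 2 the adjusted p was 0.0584. Lcn2 was at 1265, 1622 and 1276 in TAK242-fatty acid-LPS libraries, against 506.6, 1167 and 953.5 in fatty acid-LPS libraries. These groups did not overlap either, but the log2 change of 0.74 (95% interval 0.17 to 1.31) had an adjusted p of 0.123.

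Chil1 was at 183.6, 239.8 and 128.8 in TAK242-fatty acid-LPS libraries, against 131.8, 127.0 and 95.9 in fatty acid-LPS libraries. The groups overlapped, and the log2 change was 0.60 (95% interval 0.06 to 1.15, adjusted p = 0.179). Slpi was at 36.7, 53.6 and 25.9 in TAK242-fatty acid-LPS libraries, against 18.5, 15.4 and 15.6 in fatty acid-LPS libraries. The groups did not overlap, with a log2 change of 1.13 (95% interval -0.71 to 2.96, adjusted p = 0.447). That interval carries the wide spread of Slpi in the LPS-alone group, because all 12 libraries share an estimate of spread. With only the 6 libraries compared, Slpi passed (adjusted p = 0.0409).

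Saa3 was at 51385, 39763 and 11673 in TAK242-fatty acid-LPS libraries, against 14278, 13325 and 12973 in fatty acid-LPS libraries. Replicates 1 and 2 of the TAK242 group were high and replicate 3 lay below all fatty acid-LPS libraries, giving a log2 change of 1.09 (95% interval -0.06 to 2.25, adjusted p = 0.241). Camp averaged 1.41 ± 0.64 in TAK242-fatty acid-LPS libraries and 1.23 ± 0.19 in fatty acid-LPS libraries (SD, n = 3 each), a log2 change of 0.07 (adjusted p = 0.872). For Lyz2 the log2 change was 0.23 (adjusted p = 0.256), and for Lyz1 it was 0.06 (adjusted p = 0.804). So 1 of 8 tested members rose and 0 fell, while 4.69% of all genes tested passed, 3.01% as higher and 1.68% as lower. At an unadjusted p under 0.05, 3 of 8 members were higher, as were 12.7% of all genes tested. The median log2 change was 0.67 over the 8 members and -0.00 over all genes tested.

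Set against LPS alone, the TAK242-fatty acid-LPS means were 112.5% for Saa3, 79.8% for Lcn2, 74.5% for Hp, 59.5% for Chil1, 36.6% for Camp and 7.25% for Slpi. The fatty acid-LPS means, on the same LPS-alone libraries, were 44.4% for Saa3, 50.4% for Lcn2, 38.4% for Hp, 38.2% for Chil1, 32.0% for Camp and 3.09% for Slpi. Both Slpi percentages lean on LPS-alone replicate 1, at 1388 against 151.1 and 63.2 in the other libraries of that group. The TAK242-fatty acid-LPS mean of Saa3 averages 51385, 39763 and 11673, the last below every LPS-alone library. Camp was the member that passed between TAK242-fatty acid-LPS and LPS-alone macrophages, where it fell. It was at 1.84, 1.72 and 0.669 in TAK242-fatty acid-LPS libraries, against 5.09, 3.80 and 2.65 in LPS-alone libraries, a log2 change of -1.02 ± 0.22 (adjusted p = 0.0319). That call was lost without LPS-alone replicate 1 or 2 or without TAK242 replicate 1 or 3. Slpi had a log2 change of -2.65 (95% interval -4.48 to -0.81, adjusted p = 0.0749), and without LPS-alone replicate 3 it was -3.59 and passed (adjusted p = 0.0128). Chil1 had a log2 change of -0.75 (adjusted p = 0.0832) and Hp of -0.43 (adjusted p = 0.104). Here 1 of 8 tested members passed, while 5.89% of all genes tested did, 4.05% as higher and 1.84% as lower. At an unadjusted p under 0.05, 5 of 8 members were lower, as were 10.3% of all genes tested.

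**Figure D2:**
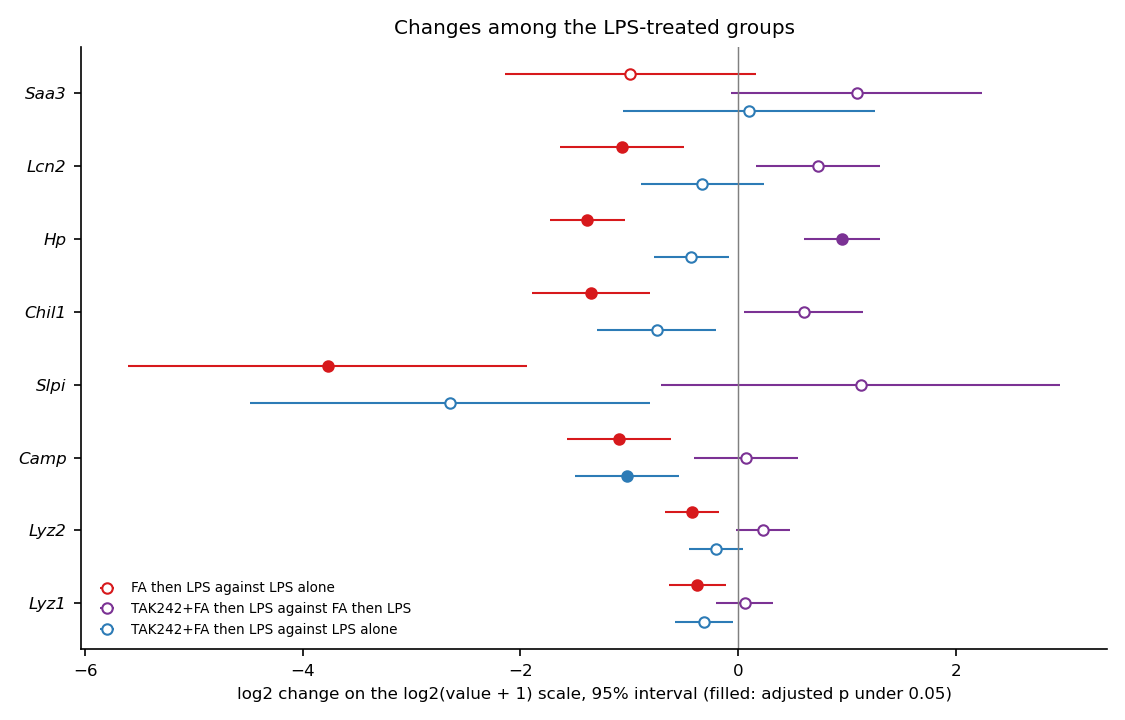
Log2 changes (horizontal axis, log2(value + 1) scale) with 95% intervals of the 8 tested members in 3 comparisons among LPS-treated groups, with filled points where the adjusted p is under 0.05. Red points (fatty acid) lie left of 0 for all 8, with Slpi furthest at -3.77, purple points (TAK242 with fatty acid against fatty acid) lie right of 0 with Hp alone filled, and blue points (TAK242 with fatty acid against LPS alone) have Camp alone filled.

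Against untreated macrophages, Saa3, Hp, Lcn2, Slpi and Chil1 rose in both pretreated groups, which share the untreated libraries. In fatty acid-LPS macrophages 5 of the 8 tested members rose and 2 fell, while 60.1% of all genes tested passed, 15.2% as higher and 44.9% as lower. In TAK242-fatty acid-LPS macrophages 5 rose and 1 fell, while 58.1% of all genes tested passed, 14.1% as higher and 43.9% as lower. Here too Hp, Chil1 and Camp had passed the filter only through libraries with LPS. The filter thus favoured the rise of Hp and Chil1, and both counts are a description. For fatty acid-LPS macrophages the log2 changes were 10.66 for Saa3, 7.63 for Lcn2, 6.64 for Chil1, 6.05 for Hp and 2.98 for Slpi, the last with an adjusted p of 0.00927. For TAK242-fatty acid-LPS macrophages they were 11.75 for Saa3, 8.36 for Lcn2, 7.24 for Chil1, 7.00 for Hp and 4.11 for Slpi, the last with an adjusted p of 0.00143. Camp, which rose under LPS alone, did not pass in either, with a log2 change of 0.40 in fatty acid-LPS macrophages (adjusted p = 0.137) and of 0.47 in TAK242-fatty acid-LPS macrophages (adjusted p = 0.0838).

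On the deposited scaling, lysozymes were lower than in untreated macrophages. In fatty acid-LPS macrophages Lyz2 fell by 0.50 on the log2 scale (adjusted p = 0.00258) and Lyz1 fell by 0.37 (adjusted p = 0.0197). In TAK242-fatty acid-LPS macrophages Lyz1 fell by 0.31 (adjusted p = 0.0445) with overlapping groups, and Lyz2 had a log2 change of -0.27 (adjusted p = 0.0558). These calls went with the scaling. Under median-ratio scaling the fatty acid-LPS changes were -0.15 for Lyz2 (adjusted p = 0.343) and -0.03 for Lyz1 (adjusted p = 0.848), and the TAK242-fatty acid-LPS change of Lyz1 turned to 0.02 (adjusted p = 0.886).

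Within the LPS-alone and the TAK242-fatty acid-LPS groups, most tested members were highest in the same library. Among LPS-alone libraries, all 8 tested members were lowest in replicate 3, and 7 were highest in replicate 1, the exception being Saa3, highest in replicate 2. Among TAK242-fatty acid-LPS libraries, 6 of the 8 were highest in replicate 2, while Saa3 and Camp were highest in replicate 1. Fatty acid-LPS libraries were close for most members, with a highest library at most 1.48 times the lowest in 7 of the 8 and at 2.3 times the lowest for Lcn2.

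Of a list of signals and transcription factors upstream of the members, 18 of 23 were tested, and 12 rose and 2 fell in LPS-alone against untreated macrophages, with a median log2 change of 1.16 against -0.31 over all genes tested. Across all genes tested, 13.8% rose and 47.9% fell. Genes near 0 in untreated libraries, such as Il1b, passed the filter only through libraries with LPS. That favoured their rise, and the count of 12 is a description. Nfkbiz, a co-factor of NF-kappaB needed for Lcn2 induction in mouse macrophages, rose by a log2 change of 3.27 (adjusted p = 3.77e-08), and the cytokine genes Il1b and Il10 rose by 9.17 and 2.88. Il6st, the shared receptor chain of the IL-6 family, fell by 1.32 on the log2 scale. In fatty acid-LPS against LPS-alone macrophages, 9 of these 18 fell and 4 rose, with a median log2 change of -0.42 against 0.06 over all genes tested. Shares over all genes tested were 15.3% lower and 21.8% higher. Il1b was at 45.1, 30.7 and 28.2 in fatty acid-LPS libraries, against 1987, 543.2 and 262.1 in LPS-alone libraries, a log2 change of -4.23 (adjusted p = 0.000941). Its LPS-alone libraries stood in the order seen for Slpi and for every other tested member but Saa3. Socs3, the feedback inhibitor of STAT3 signalling, fell by 1.11 on the log2 scale (adjusted p = 0.000315), while Il6st rose by 0.73 and Il10ra, the IL-10 receptor, rose by 0.67. With TAK242, 0 of the 18 rose and 2 fell against fatty acid-LPS macrophages, while 3.01% of all genes tested rose and 1.68% fell. Il10 was at 4.71, 6.10 and 6.22 in TAK242-fatty acid-LPS libraries, against 11.98, 9.13 and 9.38 in fatty acid-LPS libraries, a log2 change of -0.74 (adjusted p = 0.0339), and Il6st had a log2 change of -0.42 (adjusted p = 0.0491). Both calls were lost without any 1 of the 6 libraries compared.

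Of the receptors and partners of the members, 15 of 23 were tested, and 6 rose and 7 fell in LPS-alone against untreated macrophages, with a median log2 change of -0.26. Across all genes tested, 13.8% rose and 47.9% fell, and the count of 6 is a description. Fpr2, a receptor for serum amyloid A and for the cathelicidin peptide, rose by a log2 change of 4.74, and Fpr1, its close relative, rose by 5.12. Hmox1, which degrades the haem of captured haemoglobin, rose by 2.02, while Cd163, the haptoglobin-haemoglobin receptor, fell by 1.40 on the log2 scale and Tlr4 fell by 0.99. In fatty acid-LPS against LPS-alone macrophages 6 of the 15 rose and 3 fell, with a median of 0.33. Of all genes tested, 21.8% rose and 15.3% fell. Tlr4 rose by 0.48 (adjusted p = 0.00148) and Cd163 rose by 0.54 (adjusted p = 0.00308), while Mmp9, whose product pairs with lipocalin 2 in human neutrophils, fell by 2.23 on the log2 scale (adjusted p = 0.00400) and Tlr2 fell by 0.96 (adjusted p = 0.00433). In TAK242-fatty acid-LPS against fatty acid-LPS macrophages 1 of the 15 passed, Lrp1, a scavenger receptor, which rose by 0.65 (adjusted p = 0.0443), a call lost under 7 of 12 alternatives. Of all genes tested, 4.69% passed.

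Other acute phase and antimicrobial genes did not all move as the members did. Of a list of 46, 44 were in the table and 11 were tested, and 6 rose and 3 fell in LPS-alone against untreated macrophages, with a median log2 change of 0.98. Across all genes tested, 13.8% rose and 47.9% fell. Genes near 0 in untreated libraries, such as Saa1, passed the filter only through libraries with LPS. That favoured their rise, and the count of 6 is a description. Complement C3 rose by a log2 change of 5.96, Cp (ceruloplasmin, a copper-carrying plasma protein) rose by 4.52 and Wfdc21 rose by 4.39, while Trf (transferrin) fell by 1.77 on the log2 scale. In fatty acid-LPS against LPS-alone macrophages, 5 of the 11 rose and 2 fell, with a median of 0.28. Of all genes tested, 21.8% rose and 15.3% fell. Cp was at 102.1, 92.5 and 101.0 in fatty acid-LPS libraries, against 20.3, 35.7 and 34.3 in LPS-alone libraries, a log2 change of 1.72 (adjusted p = 0.000286). Lbp, the LPS-binding protein gene, averaged 5.77 ± 0.09 in fatty acid-LPS libraries and 1.44 ± 0.41 in LPS-alone libraries (SD, n = 3 each), a log2 change of 1.48 (adjusted p = 9.28e-05). The fatty acid-LPS level of Lbp was close to its mean of 6.24 ± 0.52 in untreated libraries. Wfdc17 and Trf also rose, by 0.84 and 0.94.

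Cp, Lbp, Trf and Wfdc17 fell in TAK242-fatty acid-LPS against fatty acid-LPS macrophages, and 0 of the 11 rose, with a median log2 change of -0.23. Of all genes tested, 1.68% fell and 3.01% rose. Cp was at 48.2, 53.5 and 43.7 in TAK242-fatty acid-LPS libraries, between the other groups, with a log2 change of -1.01 (adjusted p = 0.0176). Lbp fell by 1.16 on the log2 scale (adjusted p = 0.00154), Trf fell by 0.91 (adjusted p = 0.00385) and Wfdc17 fell by 0.68 (adjusted p = 0.00688). The calls of Lbp, Trf and Wfdc17 held under 12 of 12 alternatives, and that of Cp under 8 of 12. These comparisons share the fatty acid-LPS libraries. Saa1 and Orm1 were singled out after their values were seen. Saa1, an acute phase relative of Saa3, was at 2.19, 2.03 and 1.90 in TAK242-fatty acid-LPS libraries, at 5.73, 4.55 and 4.44 in fatty acid-LPS libraries and at 0.239, 1.26 and 2.11 in LPS-alone libraries, and was listed at 0 in all untreated libraries. It rose in fatty acid-LPS against LPS-alone macrophages (log2 change 1.51, adjusted p = 0.00171), where Saa3 did not, but Saa1 and Saa2 are near-identical copies and reads may have been divided between them. Orm1, the gene of orosomucoid 1, fell with the members, at 1.49, 1.48 and 1.21 in fatty acid-LPS libraries, against 16.7, 8.61 and 5.65 in LPS-alone libraries (log2 change -2.12, adjusted p = 0.000733).

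**Figure D3:**
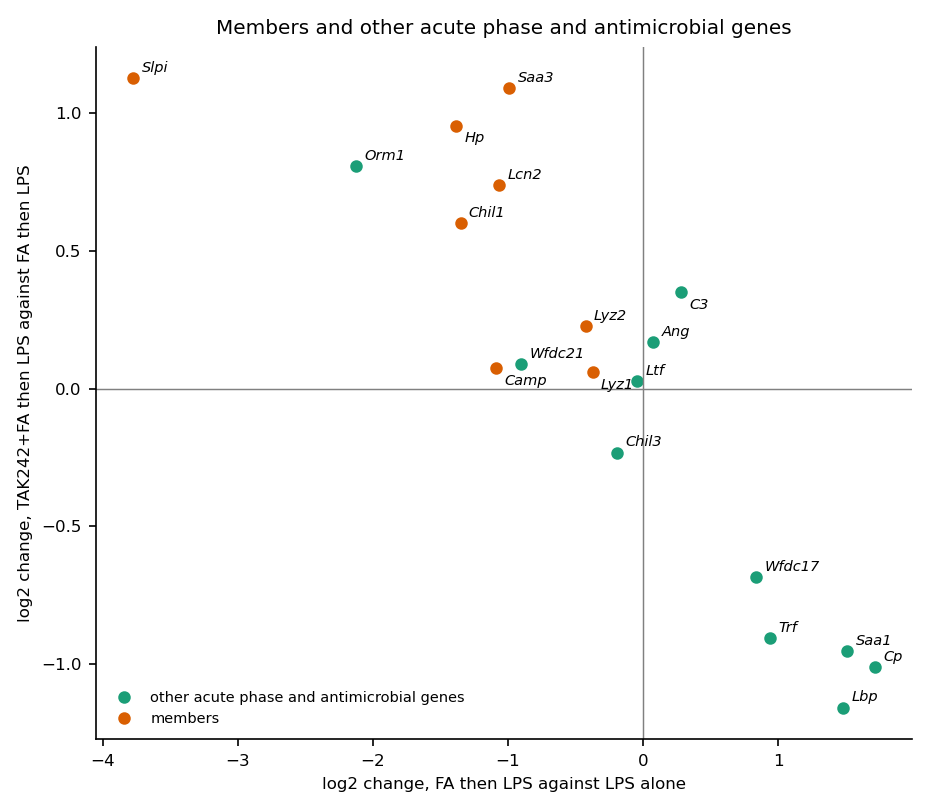
Log2 change in fatty acid-LPS against LPS-alone macrophages (horizontal axis) against log2 change in TAK242-fatty acid-LPS against fatty acid-LPS macrophages (vertical axis), both on the log2(value + 1) scale, for the 8 tested members (orange) and the 11 tested genes of the other acute phase list (green). The axes share the fatty acid-LPS libraries, which pulls points toward the diagonal from upper left to lower right, and Slpi lies at the upper left while Cp, Lbp, Saa1, Trf and Wfdc17 lie at the lower right.

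Several of the members are also neutrophil granule genes, so markers of other cells were examined beside them. Of 16 neutrophil and granulocyte precursor markers, 6 were tested, and 2 rose in LPS-alone against untreated macrophages, S100a8 by a log2 change of 2.78 and Csf3r by 1.04. Of all genes tested, 13.8% rose there. The summed value of the 16 markers was 130.8 to 162.0 in TAK242-fatty acid-LPS, 144.5 to 155.7 in fatty acid-LPS, 184.6 to 530.8 in LPS-alone and 109.2 to 122.3 in untreated libraries. In fatty acid-LPS against LPS-alone macrophages Mmp8 fell by 1.28 and S100a8 fell by 1.34 on the log2 scale, while Csf3r rose by 1.03. The defining markers Ly6g, Mpo, Elane and Cxcr2 were at 0.327 or below in every library of the fatty acid table, and Ly6g was at 0 in all LPS-alone libraries.

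Of 9 stromal and fibroblast markers, 5 were tested, and all 5 rose in LPS-alone against untreated macrophages, Col3a1 by a log2 change of 1.02 and Col1a1 by 1.35 among them. Of all genes tested, 13.8% rose there. In fatty acid-LPS against LPS-alone macrophages 4 of the 5 fell, with Col1a1 lower by a log2 change of -1.90 (adjusted p = 0.00127), and with TAK242 Col1a1 and Col1a2 rose against fatty acid-LPS macrophages, calls that held under 6 of 11 and 4 of 12 alternatives. Of all genes tested, 15.3% fell with fatty acid and 3.01% rose with TAK242. The summed value of the 9 markers was 19.3 to 23.4 in TAK242-fatty acid-LPS, 9.23 to 12.3 in fatty acid-LPS, 21.9 to 50.9 in LPS-alone and 7.02 to 15.8 in untreated libraries. The part of these cells in the members' changes was not tested, and in bulk samples fewer cells of a type and less RNA per cell cannot be told apart. The 6 hepatocyte markers were listed at 0 in every library of the fatty acid table. None of the dendritic cell, lymphocyte or mast cell and basophil markers, 6 each, passed the filter in that table, with summed values of at most 0.586, 0.179 and 0.688. Of the 12 macrophage markers, 6 rose and 4 fell in LPS-alone against untreated macrophages (13.8% and 47.9% of all genes tested). In fatty acid-LPS against LPS-alone macrophages 9 rose and 2 fell (21.8% and 15.3% of all genes tested). Their median log2 change there was 0.77, against 0.06 over all genes tested.

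The genes most like each tested member were taken by Pearson's r of log2(value + 1) over the 12 libraries of the fatty acid table, among 5468 named genes with a mean of at least 5. These libraries fall into 4 groups, untreated ones far from the rest, so r mostly reflects the LPS response and is a description. Hp was most like Acod1, which makes itaconate (r = 0.999), followed by Sod2, the mitochondrial superoxide dismutase. Lcn2 was also most like Acod1 (r = 0.995), and over the 9 libraries of the Western diet table the values were 0.961 for Hp and 0.992 for Lcn2. Saa3 was most like Mefv, the pyrin gene (r = 0.994, and 0.657 over the Western diet table), followed by Ly6i (0.993 and 0.961) and Rnf149 (0.992 and 0.959). Slpi was most like Pstpip2 (0.996 and 0.848) and had Il1a as the third (0.988 and 0.950). Chil1 was most like Acp5 (0.999), Sod2 (0.998) and Acod1 (0.997), and its r over the Western diet table was 0.649, 0.350 and 0.347 with these genes. Camp had Denr, Il6 and Ccl3 at 0.934 to 0.939, and at 0.214, 0.573 and 0.646 over the Western diet table. The nearest genes of the lysozymes reached 0.923 for Lyz1 (Trappc2l) and 0.967 for Lyz2 (Fam162a). Over the Western diet table these were 0.599 and 0.178.

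In the Western diet table the question was how the members stood in macrophages of Western diet donors, by label, with and without LPS. Neither comparison called a member, and the libraries within each Western diet group were far apart. Saa3 was at 14.5, 138.4 and 13051 in libraries labelled WD + LPS, at 12981, 88.4 and 11192 in libraries labelled WD control and at 16.0, 11.3 and 13.5 in chow untreated libraries. Its high libraries were those with high Ccl5, which was at 0.463, 10.5 and 6905 in libraries labelled WD + LPS, at 7846, 13.7 and 10973 in libraries labelled WD control and at 2.06, 2.38 and 1.57 in chow untreated libraries. Lcn2 was at 4.07, 9.75 and 1133 in libraries labelled WD + LPS, at 4792, 6.91 and 2634 in libraries labelled WD control and at 3.18, 5.14 and 2.41 in chow untreated libraries, again high where Ccl5 was high.

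Hp and Slpi had the same 3 high libraries. Hp was at 1.11, 1.08 and 125.7 in libraries labelled WD + LPS, at 49.1, 0.303 and 42.7 in libraries labelled WD control and at 0.0757, 0.116 and 0.106 in chow untreated libraries. Slpi was at 3.30, 2.16 and 11.6 in libraries labelled WD + LPS, at 71.5, 2.48 and 86.6 in libraries labelled WD control and at 0.586, 0.648 and 0.445 in chow untreated libraries. All 6 Western diet libraries were above the chow untreated ones for Hp and Slpi. The lysozymes ran the other way, lowest in those 3 libraries. Lyz2 was at 8441, 9617 and 6422 in libraries labelled WD + LPS, at 4653, 13328 and 3335 in libraries labelled WD control and at 9826, 8109 and 8949 in chow untreated libraries. Lyz1 was at 50.9, 62.4 and 44.8 in libraries labelled WD + LPS, at 26.3, 85.4 and 19.0 in libraries labelled WD control and at 58.4, 45.4 and 51.5 in chow untreated libraries.

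Chil1 did not follow Ccl5. It was at 0.357, 1.19 and 314.3 in libraries labelled WD + LPS, at 0.0293, 0 and 0.0680 in libraries labelled WD control and at 0.871, 0.658 and 0.386 in chow untreated libraries. It was thus near 0 in WD control replicates 1 and 3, where Ccl5, Saa3, Lcn2, Hp and Slpi were high, and below every chow untreated library there. The filter did not keep Chil1 in this table, since fewer than 3 libraries reached 1 in value, and with no filter its adjusted p was 0.524 in WD + LPS against WD control macrophages. Camp was between 0.247 and 1.99 in all 9 libraries, and highest in those with high Ccl5. It was at 1.99 in WD + LPS replicate 3 and at 1.48 and 1.82 in WD control replicates 1 and 3. The next value was close, 1.34 in WD + LPS replicate 2. Ptx3 did not exceed 0.0458 and Pglyrp1 did not exceed 0.240. The summed neutrophil markers were at 108.5 to 111.5 in libraries labelled WD + LPS, at 30.4 to 129.0 in libraries labelled WD control and at 41.0 to 61.0 in chow untreated libraries, and their part in these values was not tested.

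**Figure D4:**
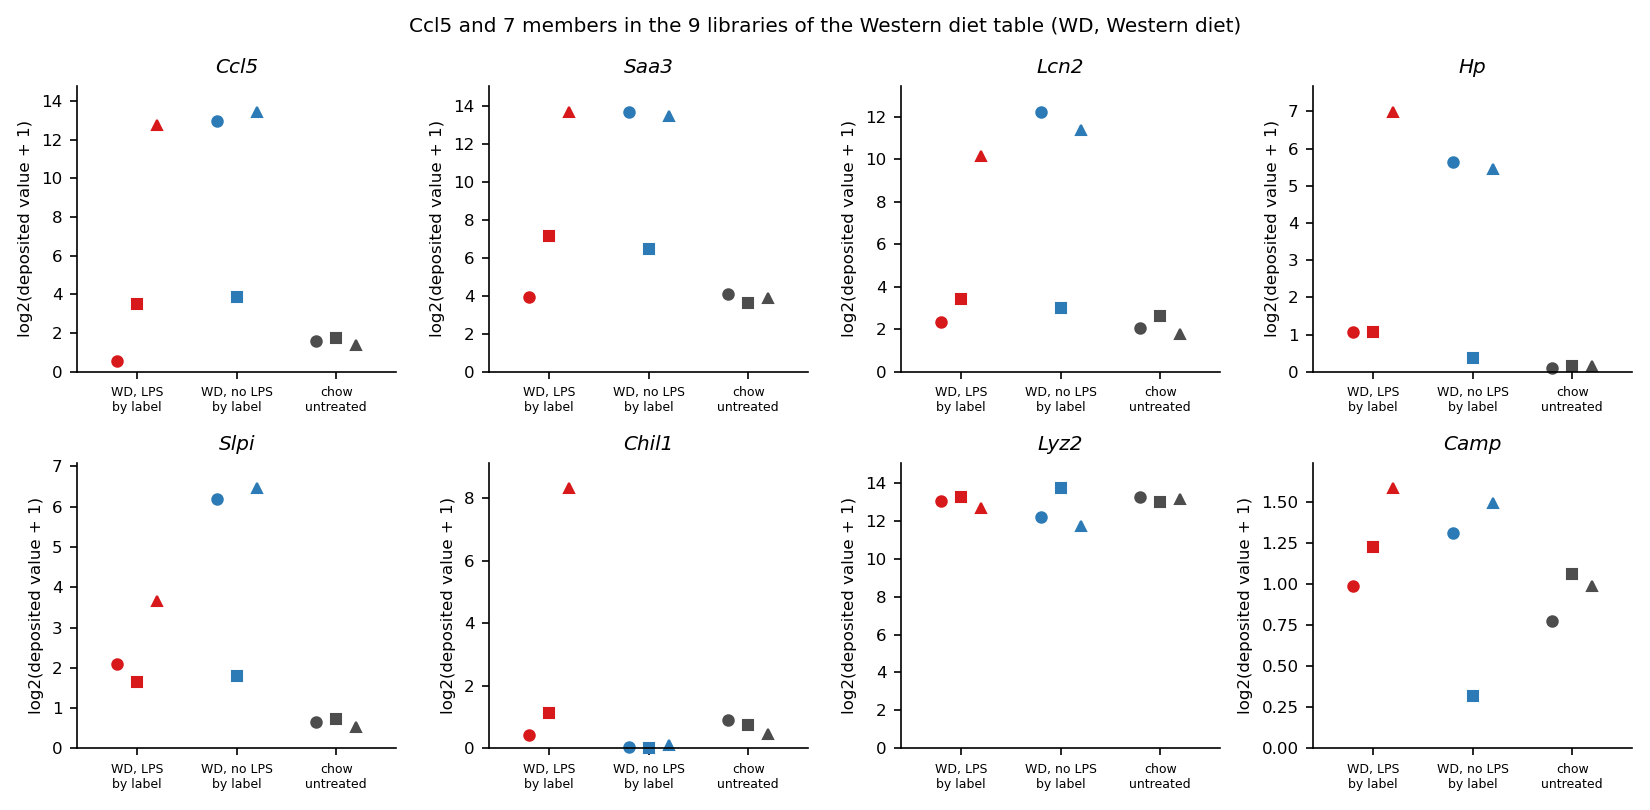
Log2(deposited value + 1) (vertical axes) of Ccl5 and 7 members in each library of the Western diet table, with circles, squares and triangles for replicates 1, 2 and 3 of the Western diet groups and 4, 5 and 6 of the chow untreated group. Saa3, Lcn2, Hp and Slpi are highest in the 3 libraries in which Ccl5 is at 6905 or more, while Chil1 is high in the library labelled WD + LPS replicate 3 and near 0 in WD control replicates 1 and 3.

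By label, in WD control against chow untreated macrophages, 0 of 7 tested members passed with limma. At an unadjusted p under 0.05, 3 of 7 (Saa3, Lcn2 and Slpi) were higher, as were 6.7% of all genes tested. Among all 10331 genes tested, 0.232% passed, 0.0678% as higher and 0.165% as lower. Slpi had the smallest unadjusted p of the members, 0.00615, with a log2 change of 4.17 (95% interval 1.55 to 6.79, adjusted p = 0.183). Slpi and Hp were below 1 in all chow untreated libraries and passed the filter only through Western diet libraries, so that p supports nothing. Without the library labelled WD control replicate 2, 6 members passed, 4 as higher and 2 as lower, while 12.1% of all genes tested were called higher and 44.4% lower. In WD + LPS against WD control macrophages, 0 of 7 tested members passed with limma, as did 0 at an unadjusted p under 0.05 (17.2% of all genes tested), and 0.958% of all genes tested passed, 0.678% as higher and 0.281% as lower. The log2 change of Saa3 was -2.95 (95% interval -8.90 to 3.00), an interval that holds large differences in either direction.

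Without the 4 libraries in which Ccl5 goes against the label, a setting chosen after seeing the data, 1 library labelled WD + LPS and 1 labelled WD control were left, each assumed to vary like the chow untreated group. All 7 tested members then passed in WD + LPS against WD control, with Saa3, Hp, Lcn2, Slpi and Camp higher and Lyz1 and Lyz2 lower, while 8.35% of all genes tested were called higher and 23.6% lower. Saa3 had a log2 change of 7.19, Lcn2 of 7.16, Hp of 6.60, Slpi of 1.85, Lyz1 of -0.92 and Lyz2 of -1.05. In WD control against chow untreated, only Saa3 passed without these libraries (log2 change 2.63, adjusted p = 0.0496), while 0.116% of all genes tested were called higher. These values describe single libraries chosen by Ccl5, and the labels of the 4 libraries were not changed.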

How the data were processed

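The authors deposited 2 tables of normalised expression values per gene and library, recorded here as a score because neither the labels nor the file headers name the unit or the quantification step. HISAT2 2.0.5 (an aligner), Trim Galore 0.4.1, FastQC 0.11.5 and CASAVA 1.8.2 appear in the submitters' processing notes, which name both mm9 and mm10 without a role. The count test chosen at the outset could not be used on this unit. Rows whose annotation cells hold shifted numbers were dropped (36 and 35). Gene coordinates equal those of GENCODE M21 (GRCm38) for 46858 and 46857 genes.

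A gene was kept where at least 3 libraries of a table reached 1 (10476 and 10331 genes). Limma 3.58.1 (R 4.3.3, mean-variance trend) was run on log2(value + 1) over all 12 or 9 libraries of a table, with Benjamini-Hochberg adjustment over every gene tested and a threshold of 0.05. The fit was checked on simulated data with independent normal noise, which do not imitate the mixed Western diet groups. Alternatives were no filter, a minimum of 5, a pseudocount of 0.1, only the libraries compared, median-ratio scaling, each library left out, and the replicate number as a block. Tables were handled with Python 3.11.15 and pandas 2.3.3, plots with matplotlib 3.10.9 and alignments with Biopython 1.88.

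The members and gene lists were chosen with earlier results of these data known. Named were all members, up to 4 genes a list and comparison by smallest adjusted p, and defining markers at or near 0. Also named were genes from the 3 most like each tested member, and Ccl5 and Tlr4 as label checks.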

Additional observations from a re-analysis of the deposited data

How the results depend on the processing

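In the fatty acid table, 6 of 6 members that rose with LPS also passed without each library in turn, as did 6 of 7 that fell with fatty acid (Lyz1 was the exception). Hp, Chil1 and Camp passed the filter only through libraries with LPS, so the first count is a description. Over all genes tested, 5872 to 6357 passed for LPS without each library, against 6463 with all libraries. For fatty acid-LPS against LPS alone these were 2922 to 4089, against 3893. Of all alternatives for single members in both tables, 661 kept the side of the threshold and the direction, 19 stayed short of the threshold with the sign changed (9 in the fatty acid table and 10 in the Western diet table), 30 lost the call, 25 gained one and 8 reversed. In TAK242-fatty acid-LPS against fatty acid-LPS macrophages, 2 members passed with only the 6 libraries compared, and 0 to 1 without each library. In TAK242-fatty acid-LPS against LPS-alone macrophages, 0 passed with no filter, a minimum of 5 or only the 6 libraries compared, 2 passed with median-ratio scaling, and 0 to 3 passed without each library. Median-ratio scaling gave Lyz2 a change of 0.34 in LPS-alone against untreated macrophages and Lyz1 a change of 0.023 in TAK242-fatty acid-LPS against untreated macrophages, both reversed. With no filter, Ptx3 passed in LPS-alone against untreated macrophages (0.14, adjusted p = 0.00131) and in fatty acid-LPS against LPS-alone macrophages (-0.16, adjusted p = 0.00311). The cause was not tested.

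By label, WD control against chow untreated gave 0 to 6 members without each library and 1 without the 4 libraries that Ccl5 set apart. WD + LPS against WD control gave 0 to 4 without each library and 7 without the 4, where 6 members reversed, Saa3 to 7.19, Hp to 6.60, Lcn2 to 7.16, Slpi to 1.85, Lyz1 to -0.92 and Lyz2 to -1.05.

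Counts over all genes also moved. TAK242-fatty acid-LPS against fatty acid-LPS gave 491 genes, but 276 with no filter, 1110 with only the 6 libraries, 750 with median-ratio scaling and 63 to 305 without each library. TAK242-fatty acid-LPS against LPS alone gave 617, but 88, 2, 986 and 1 to 1784 under the same settings. LPS-alone against untreated gave 6463, but 4303 with a minimum of 5. WD control against chow untreated gave 24, but 41 with no filter, 12 with a minimum of 5 and 8 to 5838 without each library. WD + LPS against WD control gave 99, but 58 with a minimum of 5, 2 with only the libraries compared, 200 with scaling, 0 with the block, 18 to 4086 without each library and 3301 without the 4. With median-ratio scaling, LPS-alone against untreated had 2977 genes higher and 2705 lower (1444 and 5019 without it), fatty acid-LPS against untreated 2997 and 2919 (1591 and 4704), TAK242-fatty acid-LPS against untreated 2856 and 2652 (1482 and 4600), fatty acid-LPS against LPS alone 2093 and 2076 (2286 and 1607), and TAK242-fatty acid-LPS against LPS alone 458 and 528 (424 and 193).

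Replicate numbers are shared between groups. With them as a replicate block, 6 members passed for LPS, 6 for fatty acid, 1 and 1 for the TAK242 comparisons, 7 and 7 for the pretreated groups against untreated, and 0 for WD + LPS against WD control. Same-numbered libraries deviated with correlations of -0.081 to 0.200 over 18 pairs in the fatty acid table and of -0.666 to 0.761 over 3 pairs in the Western diet table, so the numbers were not taken as pairs. No paired analysis was possible for WD control against chow untreated because these groups share no number. No depth is recorded, so limits at low values, as for Ptx3 and Pglyrp1, cannot be given.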

Other observations

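In the Western diet table, some genes of the lists stood with the label and not with Ccl5. Trem1, whose human counterpart is a receptor for the PGLYRP1 protein, was at 0.433, 0.409 and 0.371 in libraries labelled WD + LPS, at 2.64, 2.26 and 2.48 in libraries labelled WD control and at 2.65, 2.62 and 2.66 in chow untreated libraries. It fell in WD + LPS against WD control macrophages (log2 change -1.30 ± 0.13, limma adjusted p = 0.00485). The groups labelled WD + LPS and WD control did not overlap.

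Chil3, another chitinase-like gene, was at 14.6, 21.5 and 18.6 in libraries labelled WD + LPS, at 0.588, 1.69 and 0.789 in libraries labelled WD control and at 2.93, 4.16 and 3.84 in chow untreated libraries. It rose in WD + LPS against WD control macrophages (log2 change 3.27 ± 0.25, limma adjusted p = 0.00223). Lbp was at 2.83, 2.38 and 2.16 in libraries labelled WD + LPS, at 0.304, 0.00719 and 0.167 in libraries labelled WD control and at 0.136, 0.0546 and 0.0325 in chow untreated libraries, and rose between the labelled groups (log2 change 1.58 ± 0.15, limma adjusted p = 0.00404). Lbp passed the filter only through the libraries labelled WD + LPS and so had to differ, and its call is a description. In the fatty acid table Lbp went the other way, lower in LPS-alone than in untreated libraries. Ltf, the lactoferrin gene, was at 2.33, 3.38 and 3.00 in libraries labelled WD + LPS, at 0.191, 0.609 and 0.0903 in libraries labelled WD control and at 2.99, 3.93 and 2.20 in chow untreated libraries. Its log2 change was 1.60 between the labelled groups (limma adjusted p = 0.0222, a call lost under 6 of 12 alternatives) and -1.64 in WD control against chow untreated macrophages (limma adjusted p = 0.0381, lost under 10 of 11 alternatives). Within the libraries labelled WD + LPS, all of these genes were close together, although Ccl5 was at 0.463, 10.5 and 6905 in them. None of these calls between WD + LPS and WD control held with only the 6 libraries compared, where the limma adjusted p was 0.0563 for Chil3, 0.102 for Lbp, 0.105 for Trem1 and 0.137 for Ltf. With the replicate number as a block these were 0.155 for Chil3 and 0.243 for each of Lbp, Trem1 and Ltf. The calls of Chil3 and Trem1 held under all other alternatives run, as did that of Lbp, which the filter favoured.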
